A study of Mus musculus with 4 samples.

Results

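The circadian clock genes Clock, Arntl (also called Bmal1), Per1, Per2, Per3, Cry1, Cry2, Nr1d1, Nr1d2 and Dbp were followed in mouse breast cancer cells with a hairpin against YTHDF3. A member was measured by a probe set whose annotation gives that gene alone, and 9 of the 10 members had one, each a single probe set, among 22180 genes measured in this way. The annotation ties the probe set of Per2 to a second gene as well, so Per2 was not analysed here. The other 9 all lay above the background level of the arrays (log2 4.28, defined by olfactory receptor probe sets) and were among the 13056 genes tested. The cells were 4T1Br, a derivative of the mammary carcinoma line 4T1 (the sample titles say 4T1, the cell line label 4T1Br). One group was transduced with lentivirus carrying a control hairpin (shControl, 2 arrays) and the other with lentivirus carrying a hairpin against YTHDF3 (shYTHDF3, 2 arrays), and both were selected with puromycin. YTHDF3 is a cytoplasmic protein that reads the N6-methyladenosine mark on messenger RNA. Both groups were grown in medium with fetal bovine serum; the labels used here name no clock-resetting step, no hour of harvest and no separate cultures behind the arrays of a group, so p-values rest on array-to-array spread alone, and that spread may be technical.

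The clock of mammalian cells is a feedback loop of transcription. CLOCK and BMAL1 (the product of Arntl) pair up and bind E-boxes in the promoters of the Per and Cry genes, whose products return to the nucleus and block the pair. A second loop runs through the nuclear receptors REV-ERB alpha and beta, the products of Nr1d1 and Nr1d2, which compete with ROR receptors at response elements of Arntl and repress it. DBP, an output factor driven by the same E-boxes, acts on D-boxes in other genes of the loop. In cultured cells each cell keeps its own rhythm, and the population falls out of step unless serum, a glucocorticoid or a cAMP signal resets it. An array of such a culture therefore reads an average over cells, and in bulk RNA fewer cells with a transcript and less of it per cell cannot be told apart.

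These loops act through short promoter elements, so promoter sequence is shown first, mainly for the 4 members whose groups did not overlap. That was 4 of the 9 members tested, against 54.0% of all genes tested, and no link of motifs to changes was tested. The sequences are RefSeq windows of the GRCm38.p6 build, which run from 250 bases before to 50 bases after each annotated start; 13 windows covered 9 members, and Per2 had none. Bases before the start are printed 5′ to 3′ on the gene's own strand, with motif matches in capitals. Nr1d1 shows a noncanonical E-box (CACGTT, here in reverse as AACGTG) that begins 28 bases before the start. Per3 shows a pair of D-boxes (TTATGTAA), beginning 205 and 158 bases before its start. Nr1d2 shows AGGTCA, searched as a half-site for ROR and REV-ERB receptors, 77 bases before its start. No particular flanking bases were required for a match.
Nr1d1 (chr11:98775378-98775627, minus strand): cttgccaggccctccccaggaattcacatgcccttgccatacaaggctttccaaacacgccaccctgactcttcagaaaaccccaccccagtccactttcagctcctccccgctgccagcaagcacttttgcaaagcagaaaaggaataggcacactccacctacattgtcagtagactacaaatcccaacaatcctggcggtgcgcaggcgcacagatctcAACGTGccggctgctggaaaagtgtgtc
Per3 (chr4:151044666-151044915, minus strand): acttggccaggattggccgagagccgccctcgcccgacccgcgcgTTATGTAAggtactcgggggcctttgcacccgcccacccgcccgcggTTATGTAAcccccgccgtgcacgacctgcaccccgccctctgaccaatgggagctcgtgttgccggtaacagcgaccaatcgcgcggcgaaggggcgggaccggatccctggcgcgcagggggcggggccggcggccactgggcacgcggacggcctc
Nr1d2 (chr14:18239107-18239356, minus strand): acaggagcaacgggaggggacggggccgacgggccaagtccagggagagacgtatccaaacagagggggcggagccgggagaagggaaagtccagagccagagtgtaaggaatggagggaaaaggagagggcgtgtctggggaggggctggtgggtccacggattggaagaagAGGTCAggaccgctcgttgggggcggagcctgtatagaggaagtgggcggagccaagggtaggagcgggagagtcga

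For Arntl, also among the 4 members without overlap, and for Per1 and Cry1, only the surroundings of a match are shown. Arntl and Per1 each have 2 annotated starts. In Arntl the half-site AGGTCA lies after start 2, 31 to 36 bases downstream of it, and only that window holds it. Per1 and Cry1 carry the canonical E-box CACGTG, beginning 166 bases before start 1 of Per1 and 60 bases before the start of Cry1.
Arntl (chr7:113207531-113207558, plus strand): aggcagaaagtAGGTCAgggacggaggt
Per1 (chr11:69098772-69098799, plus strand): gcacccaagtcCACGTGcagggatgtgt
Cry1 (chr10:85185098-85185125, minus strand): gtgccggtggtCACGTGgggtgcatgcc

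**Figure D1:**
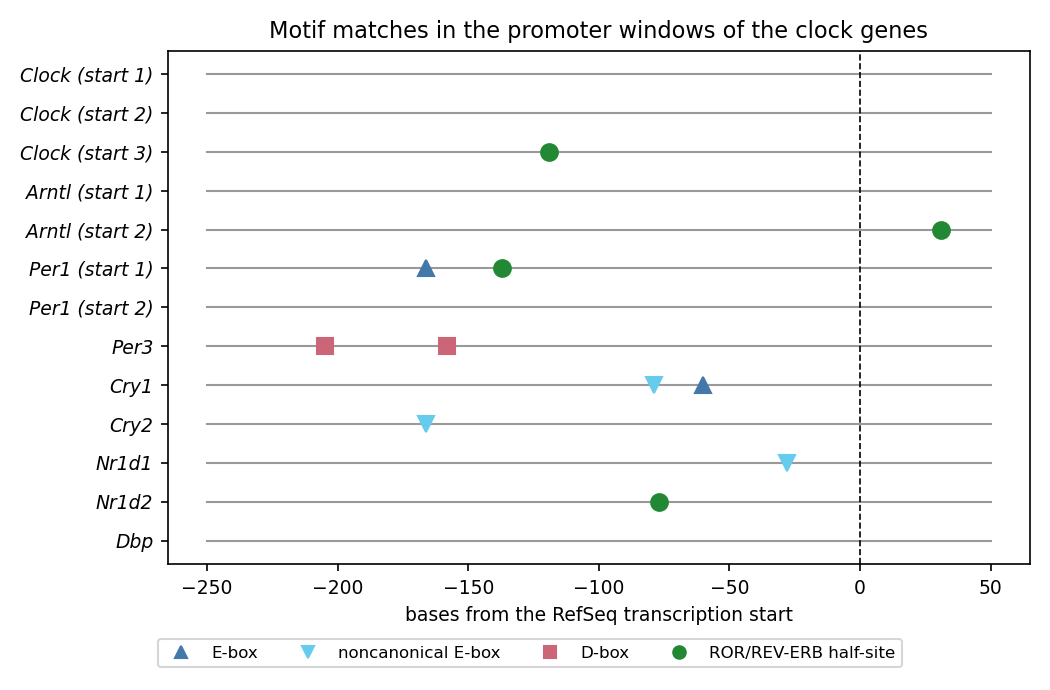
Positions of motif matches (symbols, by motif) in the 13 RefSeq promoter windows of 9 clock genes; the horizontal axis gives bases from the annotated start, and each grey line is a window. Per3 alone among these windows holds D-boxes, and the canonical E-box stands in Per1 and Cry1.

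Both strands were searched, and no match overlapped another. Of 32851 windows in the whole table, 7.15% held the canonical E-box, 4.68% the noncanonical E-box, 0.938% the D-box, 16.3% the half-site and 1.79% the cAMP response element TGACGTCA. Among the 9 members, the canonical E-box was found in 2 (Per1, Cry1), the noncanonical one in 3 (Cry1, Cry2, Nr1d1), the D-box in 1 (Per3) and the half-site in 4 (Arntl, Clock, Nr1d2, Per1). Counted by window, as the shares are, these were 2, 3, 1 and 4 of 13 windows. The cAMP response element was found in 0 of the 9, which says only that these letters are not in these windows. No window of Dbp held any of the 5 motifs. The matches describe the sequences; binding was not measured.

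As a check of the labels, the targeted transcript Ythdf3 was lower on both shYTHDF3 arrays (8.21 and 8.16, against 8.98 and 8.81 on the shControl arrays), at 61.1% of the shControl level, a difference of -0.71 in log2 (SE 0.10; limma adjusted p = 0.0355). That call ended without shControl 1 (limma adjusted p = 0.158), shControl 2 (0.177), shYTHDF3 1 (0.141) or shYTHDF3 2 (0.188), and likewise with dim probe sets kept in (0.0866) and over all probe sets (0.188). Medians of all probe sets ran from 4.42 to 4.47 on the 4 arrays. Of 8 epithelial markers 6 were above background. Krt8 (10.04 to 10.45) and Krt18 (10.45 to 11.13) lay far above its level of 4.28. Cdh1 (4.37 to 4.61) and Cldn4 (4.67 to 4.80) lay near it. Epcam (3.80 to 4.05) and Krt14 (3.63 to 4.07) were below it on every array. Markers of other lineages were above background for 1 of 6 leukocyte genes with a probe set of their own (Cd68) and 1 of 5 endothelial genes. The endothelial gene was Cdh5, close to background (4.26 to 4.42). The same held for 1 of 5 neural and glial genes and 5 of 6 fibroblast and mural genes, among which Pdgfra was brightest (8.85 to 9.57). Among all these markers Krt7, a keratin of simple epithelia, rose (1.503, limma adjusted p = 0.00816) and Pdgfra, a growth factor receptor of fibroblasts, fell (-0.61, limma adjusted p = 0.0471). Cd68 (-0.72), Krt18 (0.57) and Krt19 (-0.53) did not pass, at limma adjusted p of 0.0547, 0.0527 and 0.0816. The part of these markers in the results below was not tested.

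None of the 9 clock genes passed the test: limma called 0 of 9 at an adjusted p under 0.05, where it called 2.73% of all genes tested. At an unadjusted p under 0.05, 3 of the 9 differed (Nr1d1 and Arntl lower, Per3 higher), against 22.6% of all genes. In 4 of the 9 the groups did not overlap, lower in shYTHDF3 for Nr1d1 and Arntl and higher for Per3 and Nr1d2, against 54.0% of all genes. The median change over the 9 was log2 0.02, beside 0.0057 over all genes tested, and the median absolute change was 0.21, beside 0.15. Changes are differences of group means on the log2 scale of the authors' normalised values, shYTHDF3 minus shControl.

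**Figure D2:**
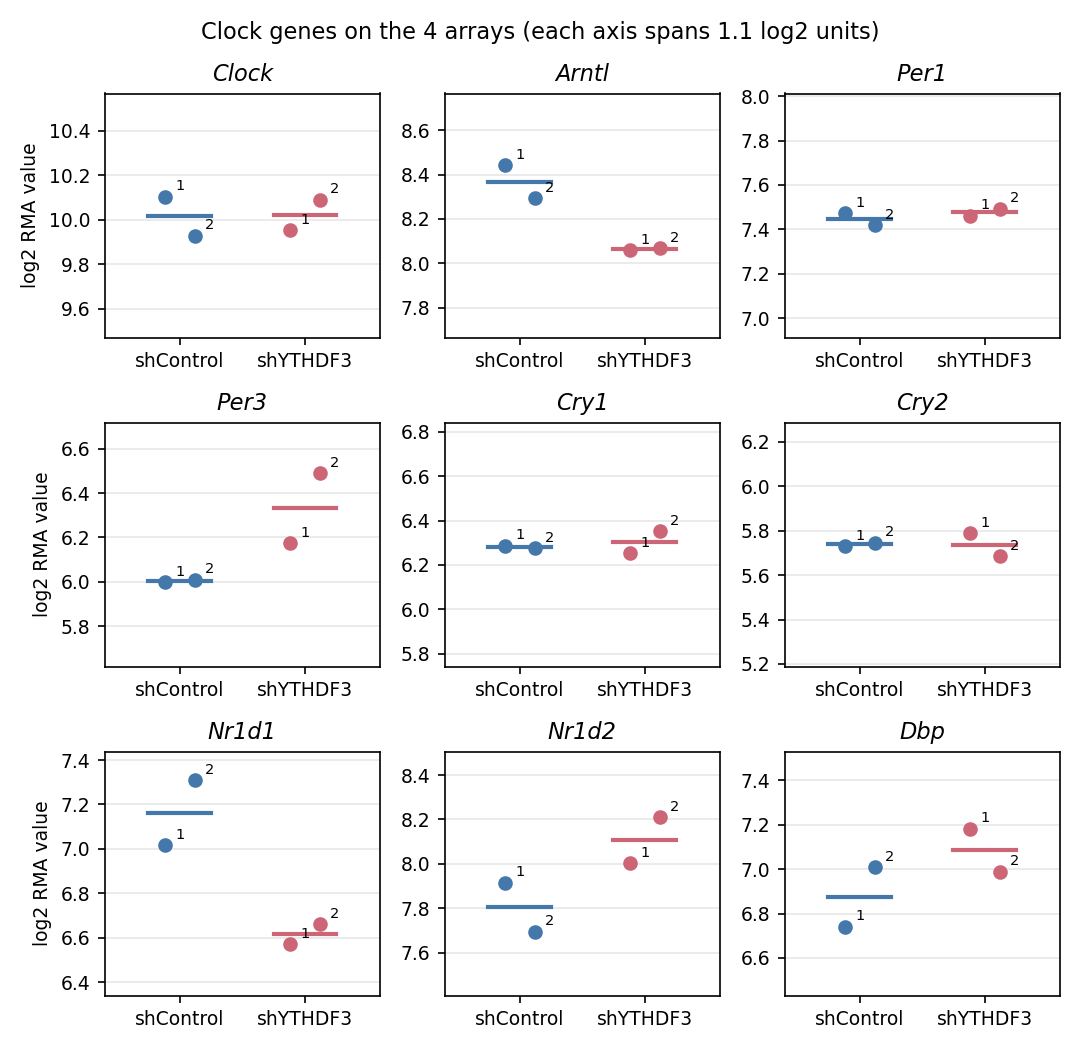
Log2 RMA values of 9 clock genes on the 2 shControl (blue) and 2 shYTHDF3 (red) arrays; small digits give the replicate number, horizontal bars the group means, and every vertical axis spans the same width. Nr1d1 and Arntl lie lower on both shYTHDF3 arrays, Per3 and Nr1d2 higher, and the other 5 overlap.

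In the activating pair, Clock overlapped between the groups and Arntl did not. Clock, the subunit with acetyltransferase activity, read 10.10 and 9.93 with the control hairpin and 9.95 and 10.09 with the YTHDF3 hairpin. These values cross over, and the change was 0.0049 (SE 0.11, limma adjusted p = 0.985), with a 95% interval of the fold change from 0.83 to 1.21. Arntl, whose product is the partner without which CLOCK does not bind DNA, read 8.44 and 8.29 on the shControl arrays, against 8.06 and 8.07 on the shYTHDF3 arrays. Both shYTHDF3 values lay under both shControl values, by 0.22 at the nearest, and the level was 81.0% of shControl. The Arntl change of -0.30 (SE 0.10, limma adjusted p = 0.153) did not pass; its 95% interval, unadjusted, ran from -0.55 to -0.061. With an intensity trend in the variance model the limma adjusted p was 0.0539.

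Among the Per and Cry genes, Per3 had the largest change, and none passed. Per1, which serum and hormones induce quickly, read 7.47 and 7.42 on the shControl arrays, then 7.46 and 7.49 on the shYTHDF3 arrays, the narrowest spread of the 9 genes over the 4 arrays (0.075). Its change was 0.03 (SE 0.09, limma adjusted p = 0.872), and the 95% interval allowed a fold change between 0.88 and 1.19. Per3, a period protein of lesser weight in the core loop, read 5.9996 and 6.01 in control cells, against 6.17 and 6.49 in knockdown cells. Both shYTHDF3 arrays were higher, but they differed from each other by more than the lower one differed from shControl. The Per3 change was 0.33 (SE 0.13, limma adjusted p = 0.209), and it was 0.17 without shYTHDF3 2 and 0.48 without shYTHDF3 1.

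The cryptochromes, which carry most of the repression of CLOCK and BMAL1, overlapped between the groups. Cry1 read 6.29 and 6.28 in control cells and 6.25 and 6.35 in knockdown cells, a change of 0.02 (SE 0.09, limma adjusted p = 0.925). Cry2 read 5.73 and 5.75 in control cells and 5.79 and 5.68 in knockdown cells, a change of -0.00094 (SE 0.09, limma adjusted p = 0.998). For both genes the shYTHDF3 values lay on either side of the shControl values. The unadjusted 95% intervals allowed fold changes from 0.87 to 1.19 for Cry1 and from 0.85 to 1.17 for Cry2. Shifts smaller than these were not detectable with 2 arrays a group, and the adjusted threshold asked for larger ones.

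The REV-ERB receptors pointed in opposite directions, and neither passed. Nr1d1 read 7.02 and 7.31 on the shControl arrays, against 6.57 and 6.66 on the shYTHDF3 arrays. Both shYTHDF3 arrays were lower, with a gap of 0.35 between the groups, and this was the largest absolute change of the 9 genes. The Nr1d1 level was 68.5% of shControl, a change of -0.55 (SE 0.13, limma adjusted p = 0.0831), and its absolute size was at the 95.3rd percentile of all genes tested. It did not pass in the fit as planned, but passed with an intensity trend (limma adjusted p = 0.0252), a setting under which 10.9% of all genes tested and 1 of the 9 clock genes were called. Nr1d2 read 7.92 and 7.69 on the shControl arrays, against 8.003 and 8.21 on the shYTHDF3 arrays. It was higher on both shYTHDF3 arrays by a narrow margin (0.088 at the nearest), with a change of 0.30 (SE 0.13, limma adjusted p = 0.230). In RefSeq the span of Nr1d1 overlaps that of Thra, that of Per3 overlaps Uts2 and that of Dbp overlaps Sphk2, all protein-coding. Arntl overlaps the noncoding RNA gene Gm33721, Cry2 overlaps D930015M05Rik, and Clock overlaps Gm7467 and the pseudogene Ube2n-ps1. Whether the probe sets keep these overlapping genes apart was not tested.

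Dbp, the output factor, read 6.74 and 7.01 in control cells and 7.18 and 6.99 in knockdown cells. The lower shYTHDF3 array fell just under the higher shControl array. The Dbp change was 0.21 (SE 0.13, limma adjusted p = 0.394), with a 95% interval from -0.11 to 0.53. Leaving out shControl 1 gave 0.078, shControl 2 0.34, shYTHDF3 1 0.11 and shYTHDF3 2 0.31.

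**Figure D3:**
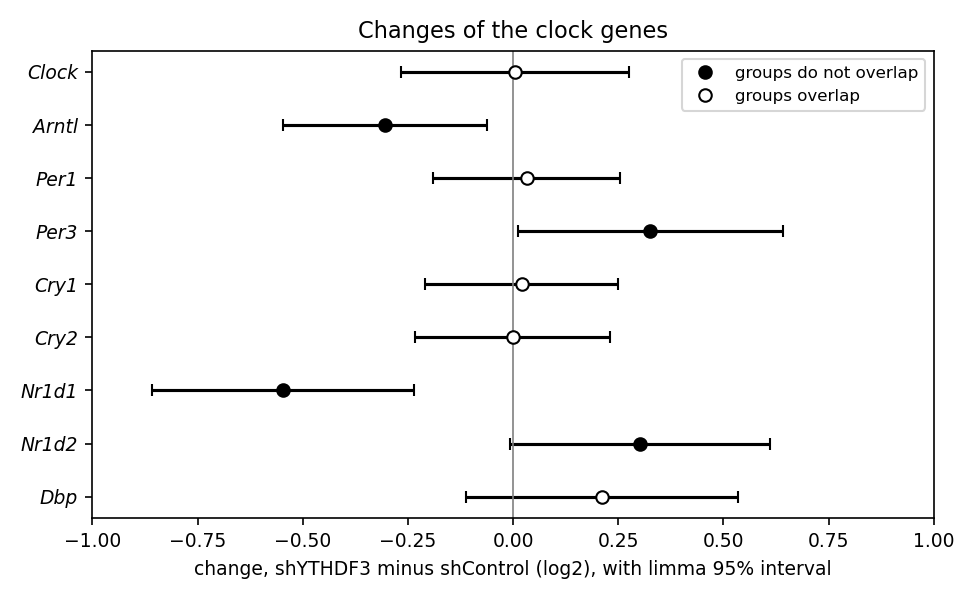
Change of each clock gene (points, log2, shYTHDF3 minus shControl) with limma's unadjusted 95% interval (bars); filled points mark genes whose groups do not overlap. The Nr1d1 interval lies furthest from 0, and the intervals of Clock, Per1, Cry1, Cry2, Dbp and Nr1d2 include 0.

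Partner genes were also set against each other, by testing the difference of their changes over the arrays (4 pairs, chosen with the values known). The change of Nr1d1 minus that of Nr1d2 was -0.85 (log2). The same difference was -0.31 for Arntl minus Clock, 0.29 for Per3 minus Per1 and 0.02 for Cry1 minus Cry2. The two-sided exact permutation p was 0.333 for the first 3 pairs, the smallest that 2 against 2 arrays can give, and 1 for the cryptochromes (0.444 and 1 after Benjamini-Hochberg adjustment over the 4 pairs). This test therefore cannot fall below 0.05 with these arrays.

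**Figure D4:**
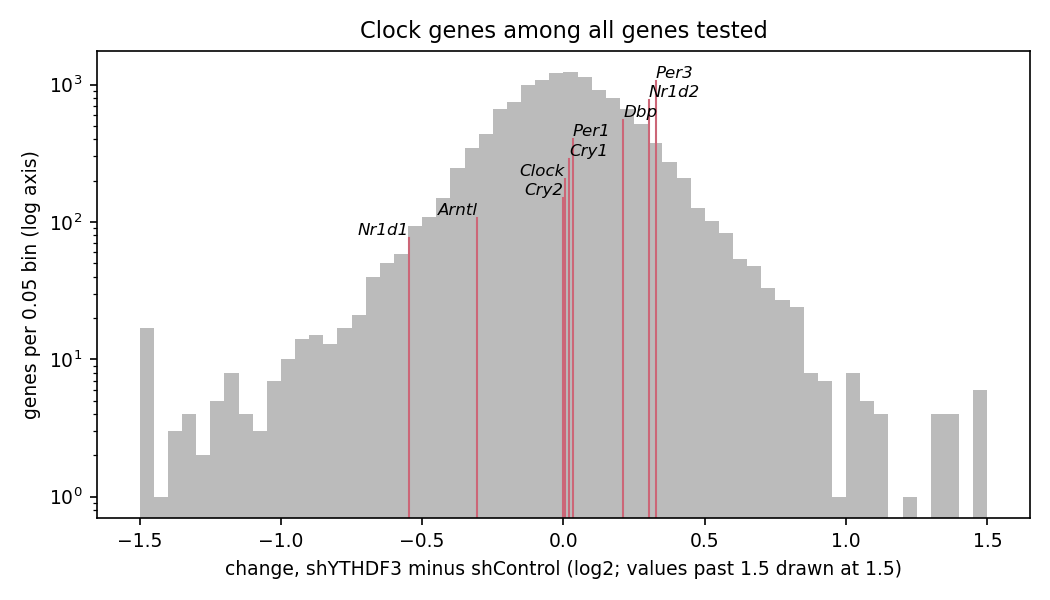
Distribution of changes of all 13056 genes tested (grey, log2, shYTHDF3 minus shControl; log-scaled count axis), with the 9 clock genes as red lines. Nr1d1 (-0.55) lies towards the lower tail, and the other 8 lie between -0.30 and 0.33.

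The gene whose 4 values spanned the widest range was Nr1d1 (0.74), and the genes nearest to it in pattern were sought by the Euclidean distance of mean-centred log2 values over the 4 arrays. Gene models without a proper name, small RNA genes and olfactory or vomeronasal receptor genes were left out of the search. Among the genes kept, the nearest were Kif21b (distance 0.087), Kif5a (0.098) and Socs3 (0.11). Kif5a read 4.33 and 4.42 on the shYTHDF3 arrays, near the background level of 4.28. Kif21b and Kif5a encode kinesin motor proteins and Socs3 a feedback inhibitor of cytokine signalling. Their changes were -0.52, -0.45 and -0.52, with limma adjusted p of 0.0625, 0.119 and 0.0603. Since these genes were picked for likeness to Nr1d1 on the same 4 arrays, changes near that of Nr1d1 follow from the choice.

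Of 22 further regulators of the clock, 19 had a probe set of their own and 16 were above background; 1 fell and 15 did not pass, against 2.73% of all genes called. The gene that fell was Bhlhe40, which encodes DEC1, a repressor that competes with CLOCK and BMAL1 at E-boxes. Bhlhe40 read 9.19 and 9.31 on the shControl arrays, against 8.39 and 8.27 on the shYTHDF3 arrays. The groups lay far apart relative to their spread, at 53.0% of the shControl level, a change of -0.92 (SE 0.10, limma adjusted p = 0.0240). With no filter on dim probe sets that call was lost (limma adjusted p = 0.0638), as it was over all probe sets (0.185) and without shControl 1 (0.157), shControl 2 (0.177), shYTHDF3 1 (0.116) or shYTHDF3 2 (0.144), while the change stayed between -0.98 and -0.86.

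Other regulators did not pass; the following were picked after their values were seen. Nfil3, a repressor at the D-boxes that DBP activates, read 6.95 and 7.12 in control cells and 6.55 and 6.54 in knockdown cells, a change of -0.49 (limma adjusted p = 0.0671). Arntl2, the paralog of Arntl, read 7.10 and 7.07 against 6.73 and 6.84, a change of -0.30 (limma adjusted p = 0.144). Csnk1e, a casein kinase that marks PER proteins for decay, differed by -0.33 (limma adjusted p = 0.110). Timeless, which in mammals acts mainly at replication forks, differed by 0.45 (limma adjusted p = 0.0737). The list median was -0.14, beside 0.0057 over all genes tested. With an intensity trend 4 of the 16 fell (Bhlhe40, Nfil3, Csnk1e and Nono) and 1 rose (Timeless), against 10.9% of all genes called either way. Nono changed by -0.27 (limma adjusted p = 0.166 in the fit as planned). Npas2, Rora and Rorb lay below background, and the 3 without a probe set of their own were not analysed here.

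Genes that the clock drives, or that are induced by signals that reset it, were counted in the same way. Of 14 clock-controlled outputs, 10 were tested and 0 passed limma, where 2.73% of all genes did. At an unadjusted limma p under 0.05, 4 lay higher and 5 lower, against 22.6% of all genes (list median -0.12). That unadjusted count moved with the fit. It was 9 with quantile normalization once more or with dim genes filtered at the overall median, and 8 with an intensity trend. It was 6 with a common median or the replicate block, 5 over all probe sets, and 5 of 12 with dim probe sets kept in. The largest absolute changes in the list were those of Coq10b, a coenzyme Q binding protein gene (-0.50, limma adjusted p = 0.0527), and Gpcpd1, a glycerophosphocholine phosphodiesterase gene (-0.48, limma adjusted p = 0.0857). With an intensity trend 3 of these 10 rose and 2 fell, against 10.9% of all genes called either way. Of 12 early genes induced by serum and cAMP, 1 rose, 1 fell and 10 did not pass, against 2.73% of all genes called (list median -0.02). Egr1, an immediate early transcription factor, rose by 1.34 (limma adjusted p = 0.0286), and Dusp1, a MAP kinase phosphatase, changed by -1.33 (limma adjusted p = 0.0214).

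Of 8 glucocorticoid-induced genes, 2 fell and 6 did not pass, against 2.73% of all genes called, with a list median of -0.30. Cebpd, an acute-phase transcription factor, changed by -1.75 (limma adjusted p = 0.0240), and Sgk1, a serum- and glucocorticoid-regulated kinase, by -0.57 (limma adjusted p = 0.0484). With an intensity trend 4 of the 8 fell, against 10.9% of all genes called either way. Per1, itself a known target of the glucocorticoid receptor and of serum signals, differed by 0.03, as given above. The calls of Egr1, Dusp1, Cebpd and Sgk1 each ended when shControl 1, shControl 2, shYTHDF3 1 or shYTHDF3 2 was left out, with limma adjusted p from 0.0744 to 0.229. With no such filter Dusp1 was still called (0.0462), and Egr1 (0.0667), Cebpd (0.0503) and Sgk1 (0.116) were not.

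**Figure D5:**
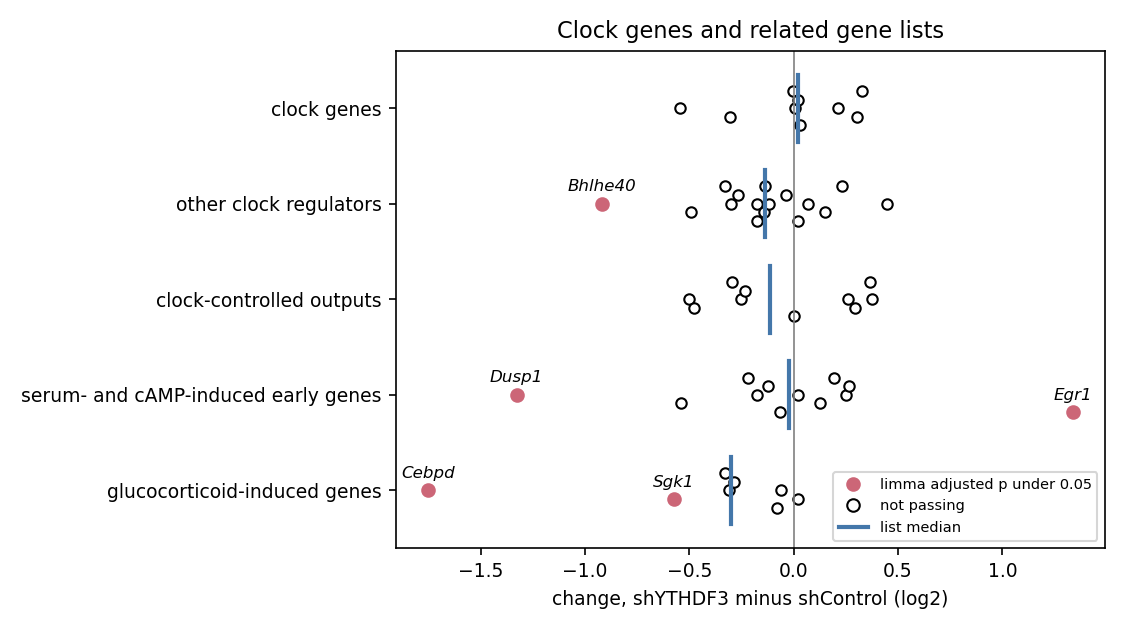
Changes (log2, shYTHDF3 minus shControl) of the genes tested in the clock list and 4 related lists; red points passed limma at an adjusted p under 0.05, open points did not, and blue bars are list medians. No clock gene or clock-controlled output passed; Bhlhe40, Dusp1, Egr1, Cebpd and Sgk1 did.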

How the data were processed

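Total RNA of 2 shControl and 2 shYTHDF3 samples of 4T1Br cells was read on 4 Affymetrix arrays, grouped by their titles. The deposited values were normalised by the authors (RMA, according to the submitters' processing notes) and were taken as log2 from their range; the sources used here give no log base, software version or genome build. RMA makes the array distributions alike, so a shift of most genes one way would not be seen. Of 41345 probe sets, 23521 carried 1 gene symbol, 1814 several and 16010 none; 23328 of the first were updated through RefSeq by Entrez identifier. A gene took its brightest probe set, and the 13056 genes above the 95th percentile of 1108 olfactory receptor probe sets were tested. Groups were compared with limma 3.58.1 (lmFit, eBayes) in R 4.3.3; tests were two-sided, and p-values were adjusted by Benjamini-Hochberg over all genes tested, with a threshold of 0.05.

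The members and gene lists were chosen with earlier results of these data known. Named were all members, Ythdf3, and from each list the called genes (at most 3 each way) or else the 2 largest changes. Also named were the 3 genes nearest in pattern to the member with the widest range. Other genes, picked after their values were seen, are Nfil3, Arntl2, Csnk1e, Timeless, Nono and the cell type markers. Alternatives covered the filter, variance model, scaling, probe sets, replicate block and leaving out each array; a lone array was then assumed to vary like the other group. Precision is limited by the number of arrays. The fit was tested on simulated data. Promoters came from RefSeq windows. Figures used Python 3.11.15 and matplotlib 3.10.9.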

Additional observations from a re-analysis of the deposited data

How the results depend on the processing

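Over 13 alternatives each, Arntl, Nr1d1, Per1, Per3, Nr1d2 and Dbp kept their direction. Only rescaling the arrays or leaving out an array could alter a change, since each of these genes has a single probe set. For Arntl, Nr1d1, Per3 and Nr1d2, whose groups do not overlap, leaving out an array could not reverse the direction. Nr1d1 ran from -0.69 to -0.40, Arntl from -0.38 to -0.23, Per3 from 0.17 to 0.48, Nr1d2 from 0.19 to 0.41 and Dbp from 0.078 to 0.34. Clock turned to -0.083 without shControl 2 and to -0.064 without shYTHDF3 2 (0.092 without shControl 1). Cry1 turned to -0.028 without shYTHDF3 2 (0.070 without shYTHDF3 1). Cry2 turned to 0.019 with a common median and, with 1 array left out, ran from -0.054 to 0.052. The number of clock genes called was 0 (1 to 3 at an unadjusted p under 0.05) in all fits but those with an intensity trend, where it was 1 (4 unadjusted), with or without robust estimation. That trend raised the calls over all genes from 356 to 1426 (1465 robust), other clock regulators from 1 to 5, clock-controlled outputs from 0 to 5 and glucocorticoid-induced genes from 2 to 4. Clock-controlled outputs had 1 call after quantile normalization once more and 1 when dim genes were filtered at the overall median; glucocorticoid-induced genes had 1 with a common median. Without the filter limma called 43 genes in all, 0 other regulators, 1 early gene and 0 glucocorticoid-induced genes; over all 21867 probe sets past the filter it called 0 in all and in every list (3337 at an unadjusted p under 0.05). With 1 array left out the calls ran from 0 to 12 over all genes and were 0 in every list, in fits with fewer samples; over all genes 1786 to 2607 passed an unadjusted p under 0.05. The replicate block gave 51 calls in all, 0 other regulators, 1 early gene and 1 glucocorticoid-induced gene, and under it Ythdf3 was not called (limma adjusted p = 0.0758). The planned fit did not pair the samples by number, since the labels do not say that a number marks a shared culture. Deviations of same-numbered arrays correlated at -0.066 over genes. That value rests on a single difference per group, so it cannot tell whether same-numbered arrays share a batch. Why the block lowered the calls was not tested. Changes under about the size of the unadjusted 95% intervals were not detectable with 2 arrays a group, and the adjusted threshold asked for larger ones. Nr1d1 (-0.55), Arntl (-0.30) and Per3 (0.33) had intervals that exclude 0 and still did not pass.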
